A study of Homo sapiens with 12 samples.

Results

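The 46 genes described here encode proteins that license replication origins, unwind DNA, copy it and act on the new chromatin in human cells. They were chosen as the rows of the deposited count table whose gene name equals a name on a list of 46, and they are 46 of the table's 26485 genes. RNA sequencing was done on PEO1 and COV362, established lines of human high-grade serous ovarian carcinoma, in 12 libraries. The groups were PEO1 with 20 nM prexasertib, PEO1 with DMSO vehicle, COV362 with 20 nM prexasertib and COV362 with DMSO vehicle, and each held 3 libraries lettered A, B and C. Prexasertib blocks CHK1 and CHK2, kinases of the DNA damage and replication checkpoints. All cells are marked as parental in the labels and shared 1 culture medium with serum and insulin. The labels do not give the time of treatment, and they do not say whether the 3 libraries of a group came from separate cultures. The p-values therefore measure only the spread between these libraries, which may be technical.

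Before S phase the origin recognition complex, CDC6 and CDT1 load the MCM2-7 ring onto DNA, a step called licensing that geminin (GMNN) blocks once replication has begun. The kinase CDC7 with DBF4, the factor CDC45 and the GINS complex then turn the loaded ring into a moving helicase. Primase with polymerase alpha starts each strand, polymerase epsilon extends the leading strand, and polymerase delta with the clamp PCNA makes the lagging strand in Okazaki fragments that are trimmed and joined. CHK1 is known for holding back origin firing and for protecting forks, and many of the genes above are known targets of the E2F factors that act at S phase entry.

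E2F sites are a promoter feature for which these genes are well known, so promoter sequence was searched and a few stretches are shown. RefSeq windows on GRCh38.p14, running 250 bases upstream and 50 bases downstream of a start, were matched by symbol to 39 members, which had 51 windows. GINS4, MCM4, MCM5, DNA2, POLD3, RPA2 and RPA3 had none. The words TTTCCCGC, TTTGGCGC, TTTCGCGC and TTTGCCGC, typical of E2F sites, were searched on both strands. A word was in 21 of 51 member windows (41.2%), against 1164 of all 35116 windows (3.31%). By the response of PEO1 described further on, the words were in 8 of 20 windows of members that fell (40.0%), in 12 of 29 windows of members that were not called (41.4%) and in 1 of 2 windows of members that rose. The word CCAAT was in 29 of 51 member windows (56.9%) and in 34.6% of all windows, and TTTGAA, the core of the CHR element of late cell cycle genes, was in 1 of 51 (1.96%) and in 15.2% of all windows. Matches could overlap each other, each window was counted once, and a match is a description of letters.

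The 150 bases upstream of the RefSeq start follow for 5 members, 5′ to 3′ on the strand of the gene, with any E2F word in capitals. CDT1 (chr16:88803639-88803788, plus strand, of which the last 11 bases are already exon in the count table) and its inhibitor GMNN (chr6:24775263-24775412, plus strand) were taken as a licensing pair of which the first fell in PEO1 and the second did not. PCNA (chr20:5126623-5126772, minus strand) has a word and was not called in PEO1. Another start of GMNN (stretch chr6:24774787-24774936) and of PCNA (chr20:5119959-5120108), not shown, has no word in its window. CDC45 (chr22:19479676-19479825, plus strand) and POLD1 (chr19:50384173-50384322, plus strand) have no word in this stretch, and both fell in PEO1.
CDT1: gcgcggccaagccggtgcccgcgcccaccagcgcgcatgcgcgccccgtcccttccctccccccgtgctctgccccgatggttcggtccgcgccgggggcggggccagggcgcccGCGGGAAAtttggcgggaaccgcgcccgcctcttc
GMNN: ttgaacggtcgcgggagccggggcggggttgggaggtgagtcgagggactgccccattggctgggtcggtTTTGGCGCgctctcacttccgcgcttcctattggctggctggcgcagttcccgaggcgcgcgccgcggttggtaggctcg
PCNA: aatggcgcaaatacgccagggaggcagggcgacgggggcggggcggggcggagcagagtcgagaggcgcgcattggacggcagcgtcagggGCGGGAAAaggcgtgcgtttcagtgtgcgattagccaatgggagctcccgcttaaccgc
CDC45: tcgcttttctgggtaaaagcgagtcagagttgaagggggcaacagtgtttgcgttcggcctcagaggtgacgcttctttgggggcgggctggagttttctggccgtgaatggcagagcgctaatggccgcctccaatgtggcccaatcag
POLD1: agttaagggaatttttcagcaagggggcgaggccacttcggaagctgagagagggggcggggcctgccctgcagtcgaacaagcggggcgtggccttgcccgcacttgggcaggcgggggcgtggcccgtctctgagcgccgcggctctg

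Libraries held 9390790 (COV362 DMSO A) to 18262805 (COV362 DMSO B) counted reads, and the members had 101 to 13432 reads each per library. The A library of every group leaned toward short transcripts (Spearman correlation of a gene's deviation from its group mean with its exon length, across genes, −0.43 to −0.36). Other libraries leaned toward long ones, at 0.46 for COV362 DMSO B, 0.43 for PEO1 prexasertib B, 0.39 for COV362 prexasertib B and 0.34 for PEO1 DMSO C. The remaining libraries ran from −0.05 to 0.14. Only the A libraries were left out as a set, and members whose call then changed are named. Markers of the labelled tissue were present at unequal levels. As group means, PAX8 was at 82.9 to 144 CPM (reads per 1000000 of the scaled library). The keratins KRT7, KRT8 and KRT18 were at 804 to 3040, 775 to 1694 and 845 to 1661 CPM. EPCAM had 449 and 418 CPM in the PEO1 groups and 10.2 and 11.9 CPM in the COV362 groups. WT1 was low in all groups, at 4.49 to 9.35 CPM. MUC16 had 5.33 and 4.87 CPM in PEO1 prexasertib and DMSO, and 22.3 and 49.6 CPM in COV362 prexasertib and DMSO. MSLN had 27.5 and 61.2 CPM in PEO1 prexasertib and DMSO, and 5.83 and 8.72 CPM in COV362 prexasertib and DMSO. The defining immune markers PTPRC and CD3E had 2 and 4 reads over all 12 libraries, and the fibroblast markers LUM and DCN had 0 and 4. Summed over their lists, 6 immune markers (mostly CD68) reached 60.2 CPM at most in a library and 5 fibroblast markers 9.58 CPM. The endothelial cadherin CDH5 was at 1.58 and 6.56 CPM in PEO1 prexasertib and DMSO and at 45.2 and 73.9 CPM in COV362 prexasertib and DMSO. The kit does not mark strand, and exons of 6 members overlap exons of a gene on the other strand. The overlap was 384 bases for PCNA (exon length 1442), 327 for MCM7 (3653) and 186 for RPA3 (1594). It was 149 bases for DBF4 (3907), 114 for GINS4 (3841) and only 4 for RFC4 (1585). Reads there cannot be told apart, so the values of these members, apart from RFC4, are less certain.

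Per exon length, the members spanned a wide range of levels. Mean RPKM (CPM divided by kilobases of exon) ran to 120 for PCNA and down to 2.58 for POLD1 in PEO1 prexasertib, and to 150 for PCNA and down to 3.65 for DNA2 in PEO1 DMSO. In COV362 the range was 4.10 for DNA2 to 209 for MCM7 with prexasertib and 5.67 for DNA2 to 200 for MCM7 with DMSO. The highest member was thus PCNA in PEO1 and MCM7 in COV362, with or without the drug.

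Many replisome transcripts were lower and a few were higher in PEO1 with prexasertib. Of 46 members tested, 16 fell and 3 rose in PEO1 (edgeR quasi-likelihood test, QL, Benjamini-Hochberg (BH) adjusted p under 0.05 over 14498 genes), against 14.6% of all tested genes that fell, 14.7% that rose and 29.3% called in all. The members' median log2 fold change was −0.18 and that of all tested genes 0.01. Reads of all members summed to 3631, 3807 and 3792 CPM in PEO1 prexasertib, against 4352, 4494 and 4277 CPM in PEO1 DMSO, so the groups did not overlap. Bulk RNA cannot tell fewer cells that hold a transcript from less of it per cell. Every treated library was above every vehicle library for 5 members and below for 19, where 25% of all genes were separated in each direction. With the replicate letter as a block 30 members were called, 8 higher and 22 lower, against 47.8% of all genes (24% higher and 23.8% lower), and the 11 added members were CDC7, MCM10, GINS4, POLD3 and RFC3, which were higher, and MCM2, GINS2, FEN1, PCNA, RFC2 and POLA1, which were lower.

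**Figure D1:**
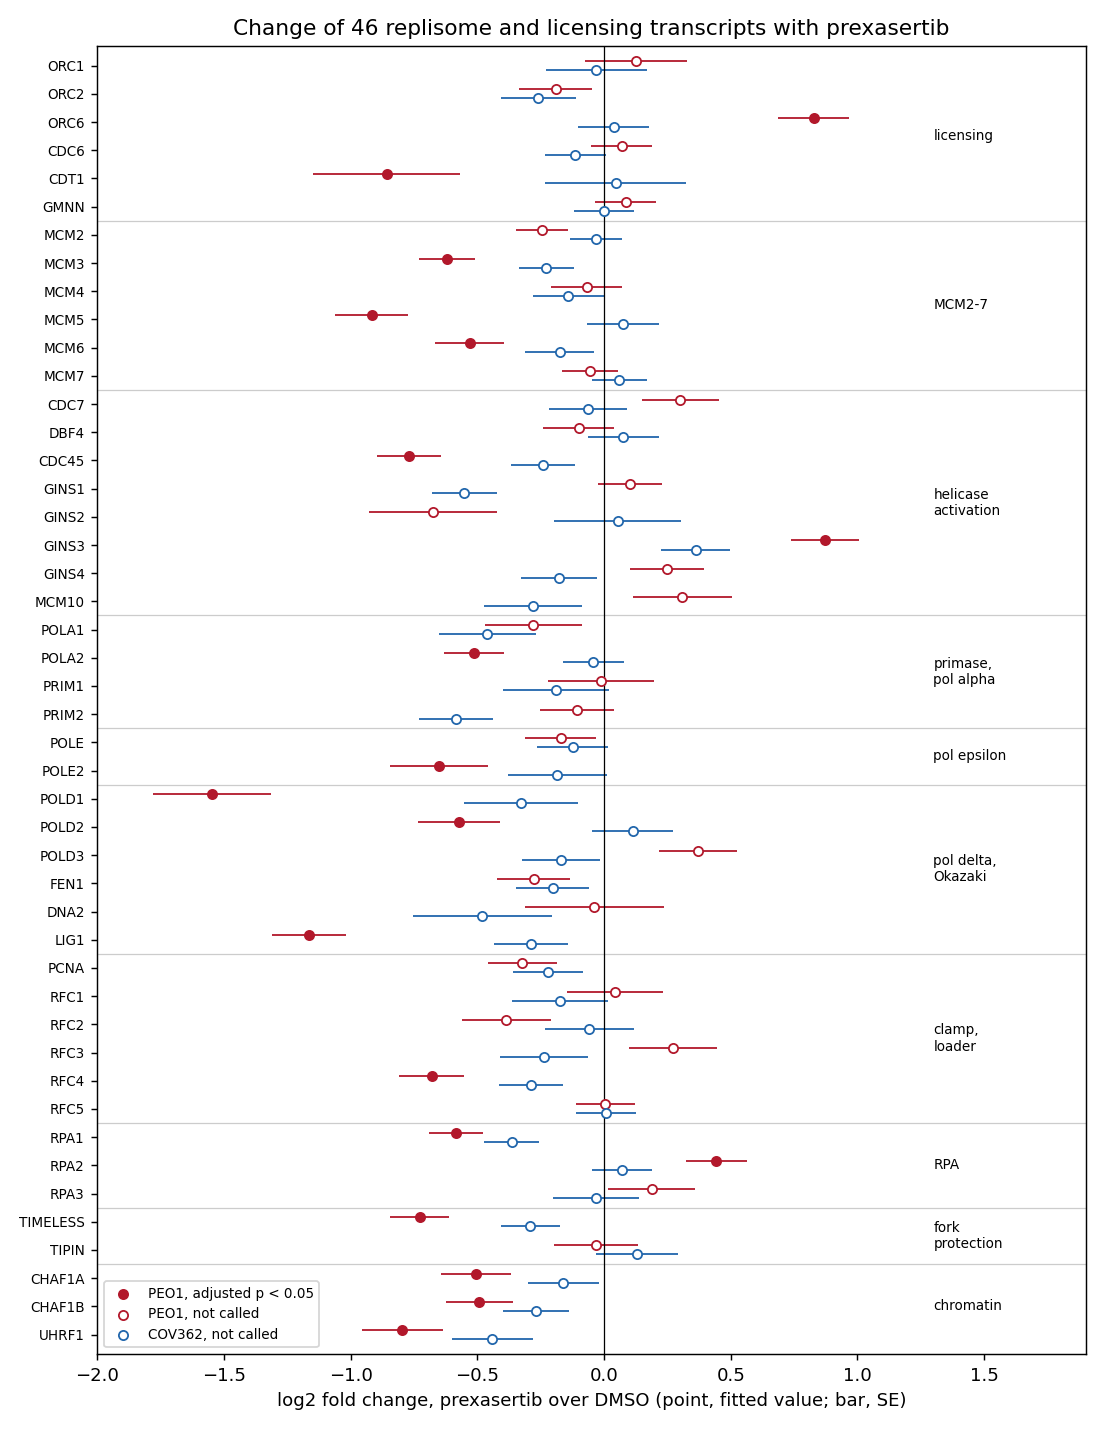
Log2 fold change of prexasertib over DMSO for each of 46 members, PEO1 in red and COV362 in blue, with SE bars and filled points for members called at an adjusted p under 0.05. The filled points are 16 to the left and 3 to the right of 0, all of PEO1.

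Among the 6 licensing genes, 1 fell and 1 rose. Gene positions are given on hg38 as in the deposited table. CDT1, which brings the MCM ring to the origin (chromosome 16, 88803778 to 88809258), had 10.1, 6.59 and 9.84 CPM in PEO1 prexasertib A, B and C, against 16.7, 13.2 and 18.1 CPM in PEO1 DMSO. All treated libraries lay below all vehicle libraries, and B was the lowest in both groups. The log2 fold change was −0.86 ± 0.29 (SE, edgeR QL, BH-adjusted p = 0.0380). The call was lost without PEO1 prexasertib B (edgeR QL, adjusted p = 0.114), PEO1 DMSO A (0.0677) or PEO1 DMSO C (0.0874), and with limma-voom (0.0539). The adjusted p ranged from 5.49e-05 to 0.114 over 15 alternatives. Its inhibitor GMNN (chromosome 6, 24774931 to 24786097) had 47.4, 50.8 and 50.6 CPM with prexasertib, against 44.9, 50.8 and 44.6 CPM with DMSO, and the groups overlapped (0.09 ± 0.12, edgeR QL, BH-adjusted p = 0.633). ORC6, the smallest subunit of the origin recognition complex (chromosome 16, 46689646 to 46698394), went the other way from CDT1. It had 76.1, 59.3 and 78.9 CPM in PEO1 prexasertib, against 35.2, 42.6 and 42.9 CPM in PEO1 DMSO, and rose by 0.83 ± 0.14 on the log2 scale (by edgeR QL test, BH-adjusted p = 0.000793). No treated library reached down into the vehicle range. CDC6, the loader that works with CDT1 (chromosome 17, 40287894 to 40303161), had 197, 226 and 207 CPM with prexasertib, against 197, 212 and 193 CPM with DMSO (0.07 ± 0.12, edgeR QL, BH-adjusted p = 0.703). ORC1 and ORC2 were not called either, at 0.13 and −0.19.

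Of the 6 MCM subunits, MCM3, MCM5 and MCM6 fell and the others were not called, with all 6 log2 fold changes below 0. MCM5 (chromosome 22, 35400123 to 35424502) had 44.7, 47.2 and 53.9 CPM in PEO1 prexasertib, against 84.6, 87.8 and 103 CPM in PEO1 DMSO. Treated and vehicle libraries were far apart, and the fold was 0.529 (log2 fold change −0.92 ± 0.14, edgeR QL, BH-adjusted p = 0.000465). MCM3 fell by 0.62 ± 0.11 and MCM6 by 0.53 ± 0.14 (edgeR QL, BH-adjusted p = 0.00103 and 0.0105). MCM2 (chromosome 3, 127598357 to 127622435) had 194, 195 and 203 CPM with prexasertib, against 234, 232 and 237 CPM with DMSO. Its groups did not overlap, yet the change of −0.25 ± 0.10 missed the threshold (edgeR QL, BH-adjusted p = 0.0847). MCM2 was called lower with the letter as a block (0.0134), with an exon length correction (0.0272), with both (0.00201) and with DESeq2 (0.00314). The range was 0.00201 to 0.127 over 15 alternatives. MCM4 and MCM7 stood at −0.07 and −0.06 with overlapping groups.

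**Figure D2:**
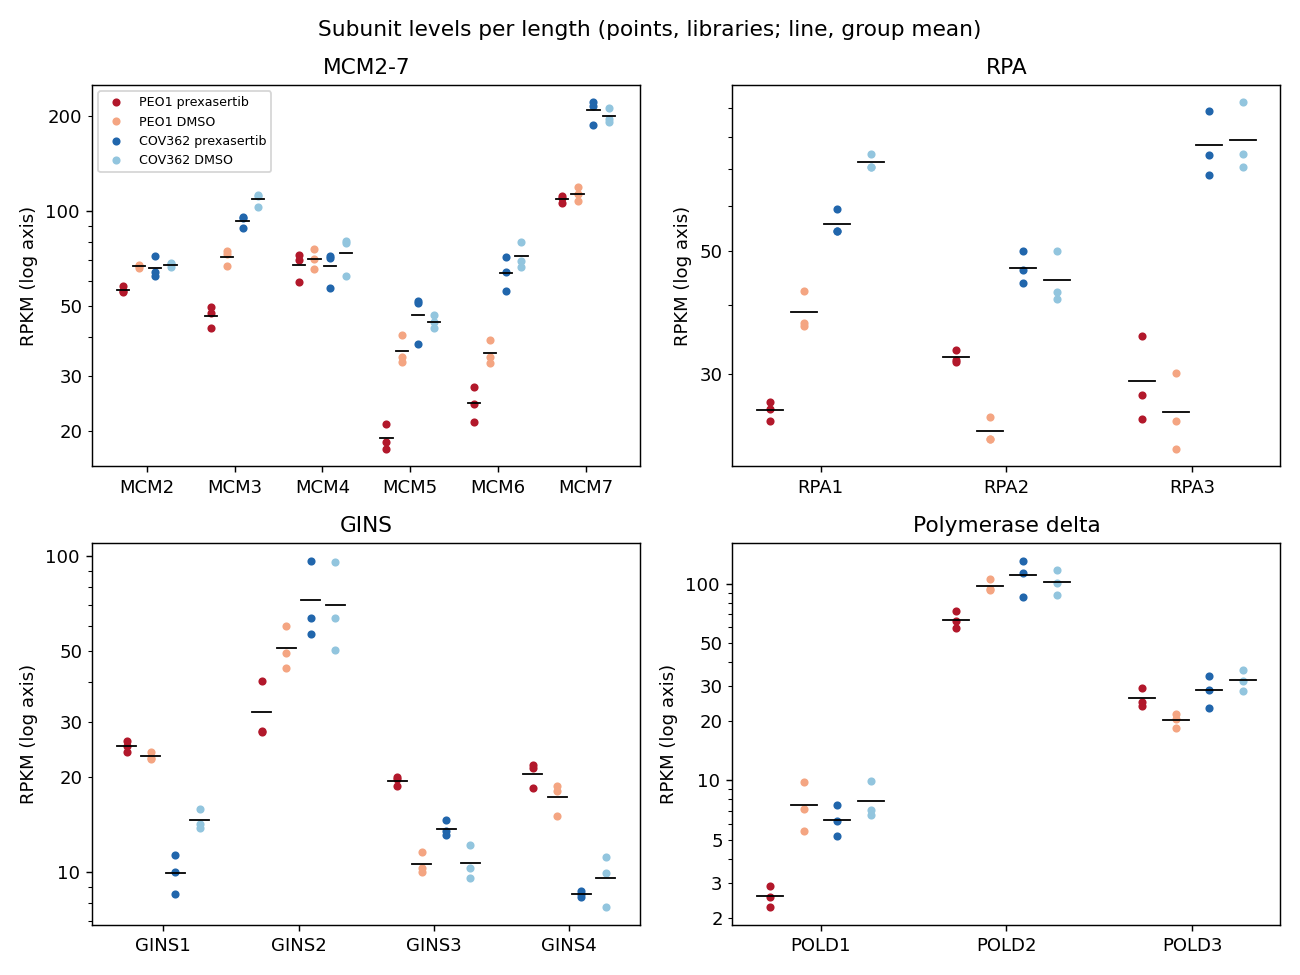
RPKM of the subunits of 4 complexes on log axes, with 1 point per library and a line at each group mean. In PEO1 the treated points of MCM2, MCM3, MCM5, MCM6, RPA1, GINS2, POLD1 and POLD2 lie below the vehicle points, and those of GINS3, RPA2 and POLD3 lie above them.

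Of 8 genes of helicase activation, CDC45 fell and GINS3 rose. CDC45, which binds the MCM ring together with GINS (chromosome 22, 19479826 to 19520612), had 47.5, 43.0 and 54.0 CPM in PEO1 prexasertib, against 82.1, 86.4 and 78.0 CPM in PEO1 DMSO (−0.77 ± 0.13, edgeR QL, BH-adjusted p = 0.000636). GINS3, a subunit of the 4-part GINS ring (chromosome 16, 58392394 to 58406144), had 47.1, 47.8 and 44.9 CPM with prexasertib, against 24.6, 27.8 and 23.9 CPM with DMSO. The treated libraries were tightly grouped above all vehicle libraries, at 1.83-fold (0.87 ± 0.14, edgeR QL, BH-adjusted p = 0.000426). Its partner GINS2 had 47.6, 32.7 and 33.1 CPM with prexasertib, against 70.8, 58.4 and 52.2 CPM with DMSO. These groups also stood apart, in the opposite direction to GINS3, but GINS2 missed the threshold (−0.68 ± 0.25, edgeR QL, BH-adjusted p = 0.0587). It was called lower with the letter as a block (3.08e-05), with DESeq2 (0.0311), without a filter (0.0156), with the exon length correction (0.00328), in the 6 PEO1 libraries alone (0.00752), without PEO1 prexasertib A (0.0286) and without the A libraries (0.00158), in a range of 5.76e-06 to 0.139 over 15 alternatives. GINS1 was at 0.10 and GINS4 at 0.25. MCM10, an activation factor, was at 0.31, the kinase CDC7 at 0.30 and its partner DBF4 at −0.10, and none of these 5 was called without the block.

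Of 4 primase and polymerase alpha genes and 2 polymerase epsilon genes, the second subunit of each polymerase fell. POLA2, the B subunit of polymerase alpha (chromosome 11, 65261852 to 65298685), had 67.6, 64.5 and 69.7 CPM in PEO1 prexasertib, against 98.0, 100 and 89.7 CPM in PEO1 DMSO (−0.51 ± 0.12, edgeR QL, BH-adjusted p = 0.00580). The catalytic POLA1 and the primase subunits PRIM1 and PRIM2 were at −0.28, −0.01 and −0.11 and were not called. POLA1 was called lower with the letter as a block (edgeR QL, BH-adjusted p = 0.0299), with an exon length correction (0.0429) and with both (0.00248). For polymerase epsilon, the catalytic POLE (chromosome 12, 132623762 to 132687524) had 37.5, 48.0 and 44.2 CPM with prexasertib, against 43.2, 48.6 and 54.0 CPM with DMSO. Its groups overlapped (−0.17 ± 0.14, edgeR QL, BH-adjusted p = 0.387). POLE was called lower with an exon length correction (−0.32, edgeR QL, BH-adjusted p = 0.0424) and with block and length correction (0.00906). The range was 0.00906 to 0.58 over 15 alternatives. POLE2, the second subunit (chromosome 14, 49643552 to 49688380), was a low transcript with 6.40, 8.63 and 9.11 CPM in PEO1 prexasertib, against 12.4, 12.9 and 12.7 CPM in PEO1 DMSO (−0.65 ± 0.19, edgeR QL, BH-adjusted p = 0.0214). The lowest treated library was A, and POLE2 lost its call without it (adjusted p = 0.0612, range 0.00220 to 0.0612 over 15 alternatives) and without all A libraries (0.0572).

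The 2 largest changes of all members were on the lagging strand. POLD1, the catalytic subunit of polymerase delta (chromosome 19, 50384323 to 50418018), had 9.10, 8.02 and 10.3 CPM in PEO1 prexasertib, against 25.5, 19.7 and 34.9 CPM in PEO1 DMSO. The vehicle libraries were widely spread, but the lowest of them was above every treated library, and the fold was 0.342 (−1.55 ± 0.23, edgeR QL, BH-adjusted p = 0.000365). LIG1, the ligase that joins Okazaki fragments (chromosome 19, 48115445 to 48170603), had 25.1, 27.5 and 29.1 CPM with prexasertib, against 60.7, 56.5 and 66.1 CPM with DMSO. Here the groups were tight and far apart, at a fold of 0.446 (−1.17 ± 0.15, edgeR QL, BH-adjusted p = 9.05e-05). POLD2, an accessory subunit of polymerase delta, fell by 0.57 ± 0.16 (edgeR QL, BH-adjusted p = 0.0164). POLD3, the subunit beside it, was at 0.37 ± 0.15 and missed the threshold (edgeR QL, BH-adjusted p = 0.0854), with treated libraries at 98.9, 122 and 104 CPM, against 76.3, 90.6 and 84.7 CPM with DMSO. POLD3 was called higher with the letter as a block (0.00142), in the 6 PEO1 libraries alone (0.0277) and without the A libraries (0.0438), in a range of 0.00142 to 0.406 over 15 alternatives. The flap nuclease FEN1 and the nuclease-helicase DNA2 were not called, at −0.28 and −0.04.

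Of the clamp and its loader, only RFC4 of 6 genes was called. RFC4 (chromosome 3, 186789893 to 186806695) had 53.7, 53.7 and 59.0 CPM in PEO1 prexasertib, against 90.3, 94.5 and 82.1 CPM in PEO1 DMSO (−0.68 ± 0.13, edgeR QL, BH-adjusted p = 0.00148). PCNA, the clamp itself (chromosome 20, 5114953 to 5126622), had 191, 162 and 167 CPM with prexasertib, against 236, 233 and 182 CPM with DMSO. The lowest vehicle library, C, lay inside the treated range, and PCNA was not called (−0.32 ± 0.14, edgeR QL, BH-adjusted p = 0.0919). It was called lower with the letter as a block (0.00845), with block and exon length correction (0.00602), without PEO1 DMSO C (0.0276) and with DESeq2 (0.0465). The range was 0.00602 to 0.182 over 15 alternatives. The other loader subunits ranged from −0.39 for RFC2 to 0.27 for RFC3, with RFC1 at 0.04 and RFC5 at 0.00. Without the A libraries RFC2 was called lower (edgeR QL, BH-adjusted p = 0.0352). It was also called lower with the exon length correction (0.0204), in the 6 PEO1 libraries alone (0.0332) and with the block (0.00229). The range was 0.000443 to 0.235 over 15 alternatives.

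Of the 3 subunits of RPA, which coats single-stranded DNA, RPA1 fell and RPA2 rose. RPA1, the large subunit (chromosome 17, 1829979 to 1899554), had 108, 116 and 113 CPM in PEO1 prexasertib, against 159, 184 and 161 CPM in PEO1 DMSO (−0.58 ± 0.11, edgeR QL, BH-adjusted p = 0.00136). RPA2, the middle subunit (chromosome 1, 27891526 to 27914797), had 64.9, 61.8 and 62.3 CPM with prexasertib, against 44.9, 49.2 and 44.9 CPM with DMSO. Neither subunit's groups overlapped, and RPA2 lay on the other side of its controls from RPA1, with a rise of 0.44 ± 0.12 on the log2 scale (by edgeR QL test, BH-adjusted p = 0.0130). The call of RPA2 was lost without PEO1 prexasertib A, B or C (edgeR QL, adjusted p = 0.0721, 0.0577 and 0.0595). It was also lost without PEO1 DMSO A or C (0.0839 and 0.0805) and with no filter on low counts (0.0711). The range was 0.000148 to 0.0839 over 15 alternatives, while the log2 fold change kept between 0.37 and 0.45. RPA3 was at 0.19 ± 0.17 and was not called.

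Of the fork protection pair, TIMELESS fell and its partner TIPIN did not pass the test. TIMELESS (chromosome 12, 56416373 to 56449416) had 97.9, 122 and 108 CPM in PEO1 prexasertib, against 176, 179 and 188 CPM in PEO1 DMSO, with no overlap (−0.73 ± 0.12, edgeR QL, BH-adjusted p = 0.000530). TIPIN was at −0.03 ± 0.17. All 3 genes that act behind the fork fell. UHRF1, which guides maintenance methylation to new DNA (chromosome 19, 4903080 to 4962154), had 42.3, 29.8 and 37.6 CPM with prexasertib, against 66.3, 58.5 and 65.7 CPM with DMSO (−0.80 ± 0.16, edgeR QL, BH-adjusted p = 0.00249). CHAF1A and CHAF1B, subunits of the histone chaperone CAF-1, fell by 0.51 ± 0.14 and 0.49 ± 0.13 (edgeR QL, BH-adjusted p = 0.0150 and 0.0125). By calls, the chromatin group of 3 genes was the sole group of the 10 in which every member fell, where 14.6% of all genes fell. Every log2 fold change was also below 0 in the MCM2-7, primase and polymerase alpha, polymerase epsilon and fork protection groups, where only some members were called.

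**Figure D3:**
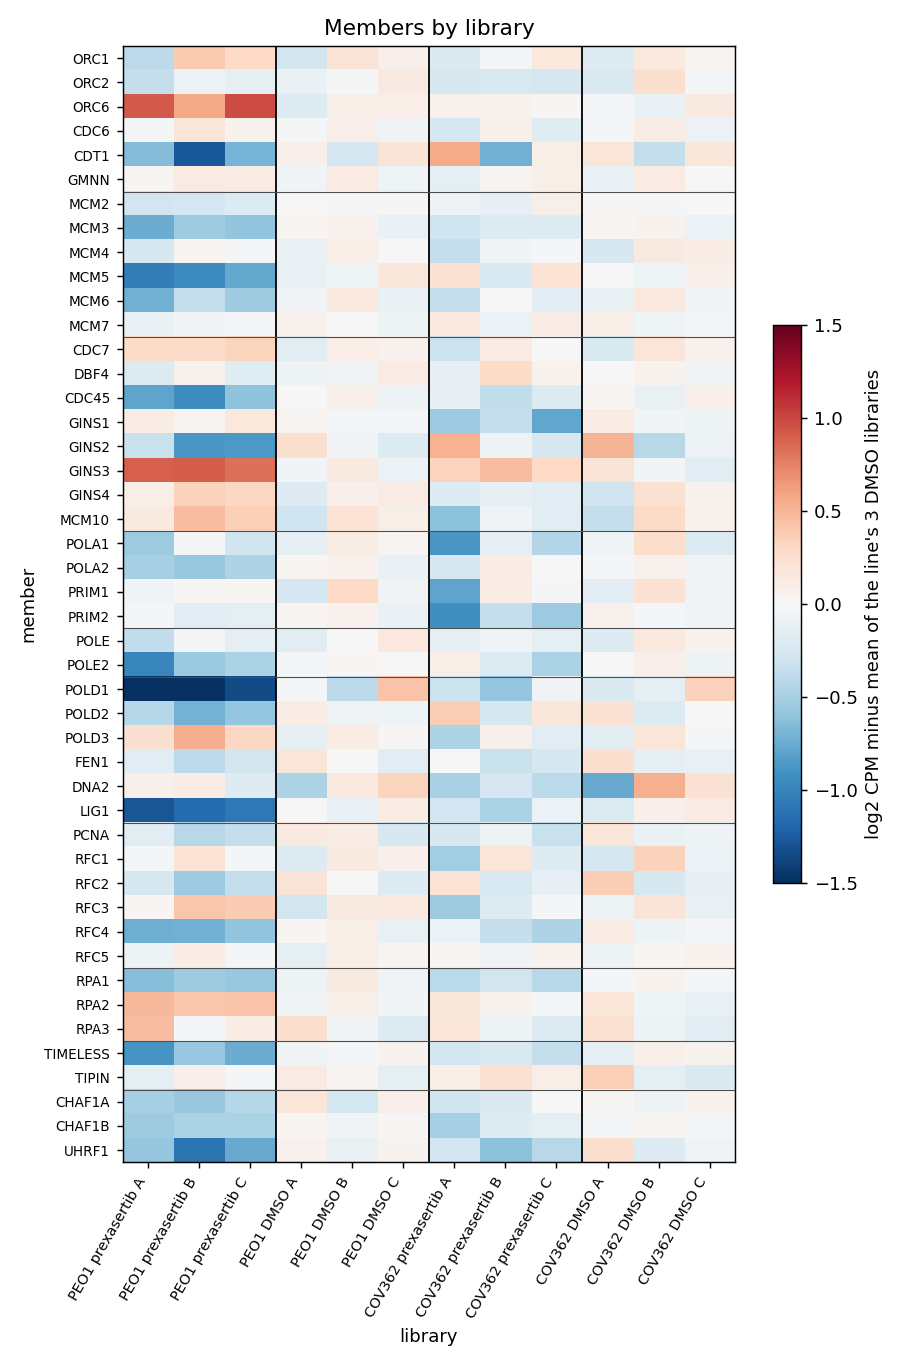
Log2 CPM of each member in each library minus the mean of the 3 DMSO libraries of its line, blue for lower and red for higher, clipped at 1.5. The strongest colours are in the 3 PEO1 prexasertib columns, blue for POLD1 and LIG1 and red for GINS3 and ORC6.

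In COV362 no member was called at 20 nM prexasertib, against 0.828% of all tested genes (120 genes, 0.607% higher and 0.221% lower). The COV362 libraries were more spread. The members' median SD over mean was 12.4% with prexasertib and 11.7% with DMSO, against 9.64% and 8.54% in PEO1. The part of this spread in the count of calls was not tested. Before adjustment, 1 member (GINS3) lay above its controls and 7 lay below them at p under 0.05, against 6.33% and 6.29% of all tested genes. DESeq2 called 3 members, all lower (GINS1, PRIM2 and RPA1), against 1.61% of all genes lower and 2.07% higher, and limma-voom called 0, against 0.904%. With the letter as a block edgeR called 6, all lower (GINS1, PRIM2, RPA1, UHRF1, POLA1 and TIMELESS), against 9.65% of all genes (4.2% higher and 5.45% lower). The fitted changes ran from −0.58 for PRIM2 to 0.36 for GINS3, with 35 of 46 below 0 and a median of −0.17, where the median of all genes was −0.01. Summed over the members, the treated libraries held 4963, 5054 and 5090 CPM, against 5494, 5552 and 5354 CPM with DMSO, without overlap. All treated libraries were below all vehicle libraries for 10 members and above for 1, against 7.63% and 6.82% of all genes.

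Values for the members nearest the threshold in COV362 show the size of these shifts. GINS1 had 33.01, 37.4 and 28.1 CPM in COV362 prexasertib, against 52.1, 46.9 and 45.5 CPM in COV362 DMSO (−0.55 ± 0.13, edgeR QL, BH-adjusted p = 0.0646, and 0.00245 with the block). The groups did not overlap, and without COV362 prexasertib B, the highest treated library, GINS1 was called (adjusted p = 0.0451, range 0.000837 to 0.410 over 15 alternatives). PRIM2, the regulatory subunit of primase, had 28.1, 41.6 and 36.6 CPM with prexasertib, against 55.7, 52.7 and 51.4 CPM with DMSO (−0.58 ± 0.15, edgeR QL, BH-adjusted p = 0.0866, and 0.00495 with the block). RPA1 had 235, 258 and 235 CPM with prexasertib, against 307, 324 and 307 CPM with DMSO. Its treated libraries were all lower, by −0.37 ± 0.11 (edgeR QL, BH-adjusted p = 0.142, and 0.00457 with the block). UHRF1 was at −0.44 ± 0.16 (edgeR QL, BH-adjusted p = 0.249, and 0.00704 with the block). CDT1, the licensing factor that fell in PEO1, had 39.2, 16.2 and 28.4 CPM in COV362 prexasertib, against 30.4, 20.8 and 30.1 CPM in COV362 DMSO. The groups overlapped, with B the lowest in both and the treated libraries more spread than the controls (0.04 ± 0.28, edgeR QL, BH-adjusted p = 0.983).

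The change in PEO1 minus the change in COV362 was tested for every member. It was called for 5 of 46 members, 2 higher and 3 lower, against 6.1% of all genes (3.14% higher and 2.97% lower), and the members' median difference was −0.09, with 0.03 for all genes. MCM5 had the lowest p, with a difference of −0.99 ± 0.20 on the log2 scale (by edgeR QL test, BH-adjusted p = 0.0154). It had 132, 96.7 and 130 CPM in COV362 prexasertib, against 113, 108 and 120 CPM in COV362 DMSO, so its groups overlapped in COV362 and not in PEO1. MCM5 kept its call in all 20 alternatives, with an adjusted p of 0.0450 at most. LIG1 differed by −0.88 ± 0.21 (edgeR QL, BH-adjusted p = 0.0259) and had 32.7, 28.6 and 37.4 CPM in COV362 prexasertib, against 34.5, 42.2 and 43.6 CPM in COV362 DMSO. POLD1 differed by −1.22 ± 0.32 (edgeR QL, BH-adjusted p = 0.0428), with 22.0, 18.4 and 26.5 CPM in COV362 prexasertib, against 23.7, 25.1 and 35.1 CPM in COV362 DMSO. For LIG1 and POLD1 the COV362 groups overlapped, with the treated mean below that of the controls.

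ORC6 and GINS1 were the members whose change was higher in PEO1. ORC6 had 51.4, 50.8 and 49.7 CPM in COV362 prexasertib, against 48.3, 45.8 and 53.8 CPM in COV362 DMSO, and the difference was 0.79 ± 0.20 (edgeR QL, BH-adjusted p = 0.0347). GINS1 differed by 0.65 ± 0.18 (edgeR QL, BH-adjusted p = 0.0483), and had 82.9, 78.8 and 85.6 CPM in PEO1 prexasertib, against 79.3, 75.3 and 75.9 CPM in PEO1 DMSO. The PEO1 groups overlapped, while the COV362 groups given above did not, with the treated libraries lower.

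**Figure D4:**
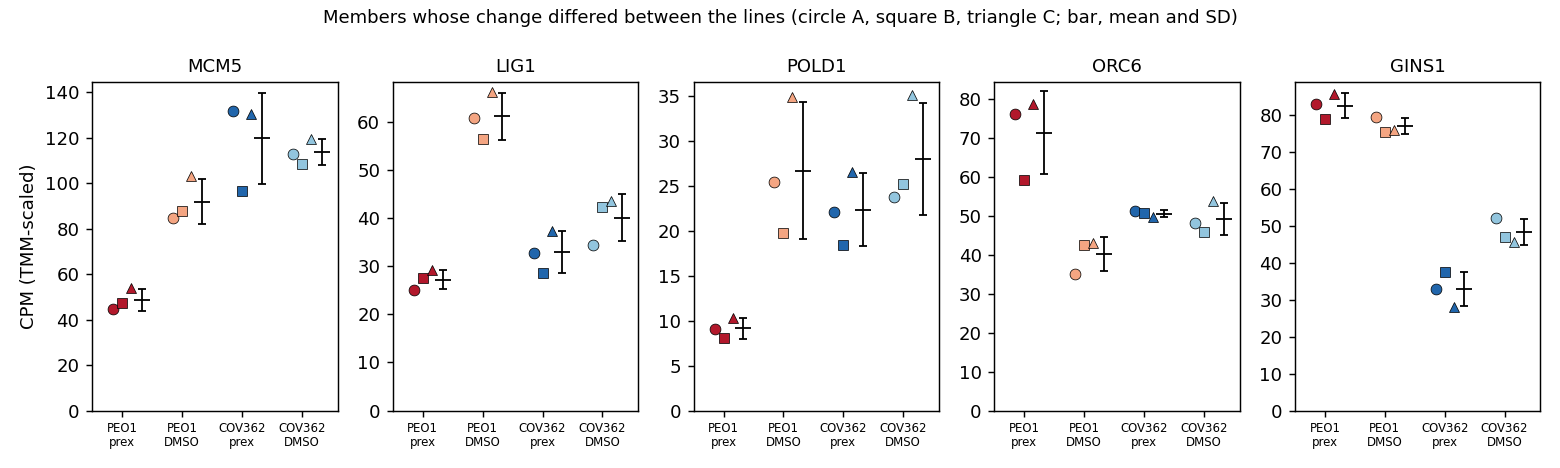
CPM of the 5 members whose change differed between the lines, with circles for A, squares for B, triangles for C, and the group mean with SD. MCM5, LIG1 and POLD1 are low and ORC6 is high in PEO1 prexasertib, and GINS1 is low in COV362 prexasertib.

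Apart from MCM5, these calls were lost when some single libraries were left out. Some were also lost by method. POLD1 was lost with limma-voom (adjusted p = 0.0533) and ORC6 with no filter on low counts (edgeR QL, 0.066). GINS1 was lost with no filter (0.126) and with the size factors of DESeq2 (0.0616), both by edgeR QL test. Other members were gained by method, all with a lower change in PEO1. The DESeq2 Wald test added CDC45 (adjusted p = 0.0143), POLA2 (0.0183), TIMELESS (0.0214), MCM3 (0.0227) and POLD2 (0.0328), and called 1966 of all genes. With the exon length correction TIMELESS (edgeR QL, 0.018), POLD2 (0.0342) and POLA2 (0.0446) were added, and 1638 of all genes were called. Without 1 library the count was 1 (PEO1 prexasertib A, PEO1 DMSO A, PEO1 DMSO C or COV362 prexasertib C left out), 2 (PEO1 prexasertib B or C, COV362 prexasertib A or COV362 DMSO B) or 3 (PEO1 DMSO B or COV362 DMSO C). It was 4 without COV362 DMSO A, where POLD1 and GINS1 were lost and POLD2 was added, and 7 without COV362 prexasertib B, where CDT1 and POLD2 were added to the 5. The count over all genes, 885 with every library, then lay between 328 (without PEO1 DMSO A) and 1756 (without COV362 prexasertib B). Without the A libraries 3 members were called, which were MCM5, GINS2 and POLD2, and 1130 of all genes. Over 20 alternatives the adjusted p ran from 5.25e-05 to 0.0761 for LIG1, from 5.79e-05 to 0.108 for POLD1, from 0.000126 to 0.116 for ORC6 and from 0.00136 to 0.133 for GINS1, with the direction kept in each. With the letter as a block 21 members were called, 9 higher and 12 lower, against 29.1% of all genes (15.1% higher and 14% lower). Added as higher in PEO1 were MCM10, GINS3, GINS4, POLD3, PRIM2, RFC3 and RPA2. Added as lower were CDT1, MCM3, MCM6, CDC45, GINS2, POLA2, POLD2, RFC4 and TIMELESS.

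Without the drug, the lines differed at many of these genes, about as often as at other genes. In PEO1 DMSO against COV362 DMSO, 27 of 46 members were called, against 57.7% of all tested genes. Of these 9 were higher in PEO1 and 18 lower, against 29.1% and 28.6% of all genes, and the median log2 fold change was −0.26, with −0.01 for all genes. All PEO1 libraries were above all COV362 libraries for 9 members and below for 20, against 32.4% and 31.1% of all genes. RPA3, the small subunit of RPA, had 48.1, 39.5 and 35.1 CPM in PEO1 DMSO, against 147, 119 and 112 CPM in COV362 DMSO (−1.62 ± 0.17, edgeR QL, BH-adjusted p = 2.83e-06). MCM10 had 33.03, 47.1 and 43.4 CPM in PEO1 DMSO, against 88.4, 139 and 118 CPM in COV362 DMSO (−1.48 ± 0.20, edgeR QL, BH-adjusted p = 2.19e-05). For both genes every PEO1 library was below every COV362 library. ORC2, a core subunit of the origin recognition complex (chromosome 2, 200910171 to 200963701), had 42.8, 44.7 and 50.04 CPM in PEO1 DMSO, against 20.4, 27.9 and 23.3 CPM in COV362 DMSO (0.94 ± 0.15, edgeR QL, BH-adjusted p = 9.01e-05). GINS4 had 57.8, 69.7 and 71.8 CPM in PEO1 DMSO, against 29.8, 42.8 and 38.3 CPM in COV362 DMSO (0.84 ± 0.15, edgeR QL, BH-adjusted p = 0.000272). These were the highest in PEO1, again with no overlap between the lines.

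**Figure D5:**
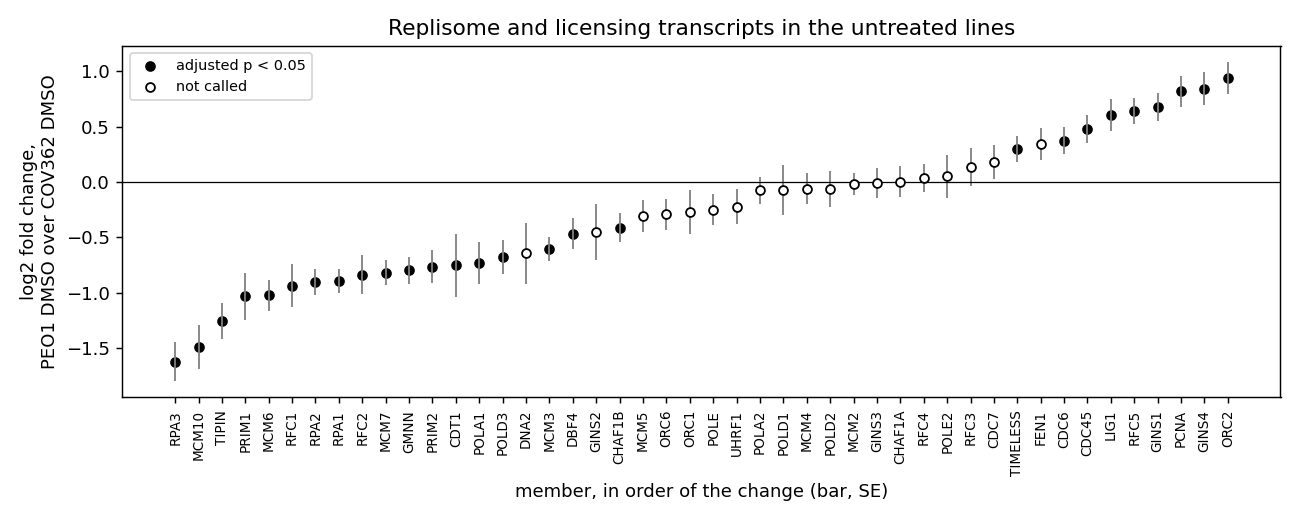
Log2 fold change of PEO1 DMSO over COV362 DMSO for 46 members in order of the change, with SE bars and filled points for an adjusted p under 0.05. RPA3 and MCM10 are at the low end and ORC2 and GINS4 at the high end.

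By role, 3 of 4 primase and polymerase alpha genes were lower in PEO1 DMSO than in COV362 DMSO (PRIM1 −1.03, PRIM2 −0.77 and POLA1 −0.73), as were all 3 RPA genes (RPA1 −0.89, RPA2 −0.90) and 3 of 6 MCM genes (MCM6 −1.02, MCM7 −0.82 and MCM3 −0.61). Other groups were mixed, where 29.1% of all genes were higher and 28.6% lower. Of 8 helicase activation genes 3 were called higher (CDC45, GINS1 and GINS4) and 2 lower (DBF4 and MCM10). Of 6 clamp and loader genes 2 were higher (PCNA and RFC5) and 2 lower (RFC1 and RFC2). Of 6 lagging strand genes 1 was higher (LIG1) and 1 lower (POLD3). Over 14 alternatives the log2 fold change was 0.50 to 0.67 for LIG1 and 0.61 to 0.73 for GINS1. TIPIN was lower at −1.26 ± 0.17, while TIMELESS was higher at 0.30 ± 0.12. PCNA was higher in PEO1, at 236, 233 and 182 CPM, against 139, 114 and 116 CPM in COV362 DMSO (0.82 ± 0.14, edgeR QL, BH-adjusted p = 0.000176). CDC6 was higher at 0.37 ± 0.12 and CDT1 lower at −0.75 ± 0.28 (edgeR QL, BH-adjusted p = 0.0168 and 0.0344), and GMNN was lower at −0.80 ± 0.12 (6.81e-05). The calls of CDC6, CDT1 and TIMELESS depended on single libraries. CDC6 was not called without PEO1 DMSO B (0.0778) or COV362 DMSO C (0.0709), with a range of 0.000327 to 0.0778 over 14 alternatives, and CDT1 was not called without PEO1 DMSO A or B (0.0577 and 0.114) or COV362 DMSO A or C (0.0824 and 0.104), with a range of 0.000115 to 0.114. TIMELESS (edgeR QL, adjusted p = 0.0390) was not called when any 1 of the 6 libraries was left out (0.0508 to 0.126) or without the A libraries (0.0504). It was not called either with an exon length correction (0.0761) or with no filter on low counts (0.0956), in a range of 0.00424 to 0.126 over 14 alternatives. CHAF1B, lower at −0.41 ± 0.13, was not called without PEO1 DMSO B (edgeR QL, 0.0548) or with no filter (0.0539), in a range of 0.00158 to 0.0548. The 19 members not called included MCM2, UHRF1, GINS3, POLA2, POLE2, POLD1 and RFC4. Without the A libraries FEN1 was called higher and DNA2 lower (edgeR QL, BH-adjusted p = 0.00780 and 0.00407, with ranges of 0.000137 to 0.216 and 0.00123 to 0.289 over 14 alternatives). With the letter as a block 34 members were called, against 68.4% of all genes, and the 7 added were ORC1, ORC6, MCM5, GINS2, POLE, FEN1 and DNA2.

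Ratios between partner genes, on the RPKM scale, were chosen after the values above were seen and carry no test. RPA2 to RPA1 was 1.34, 1.18 and 1.23 in PEO1 prexasertib, against 0.626, 0.594 and 0.618 in PEO1 DMSO, and 0.920, 0.778 and 0.806 in COV362 prexasertib, against 0.707, 0.565 and 0.580 in COV362 DMSO. In both lines every treated library had the higher ratio, with a wider gap in PEO1. GINS3 to GINS2 averaged 0.626 ± 0.122 in PEO1 prexasertib and 0.211 ± 0.0344 in PEO1 DMSO (SD, n = 3 each), and 0.199 ± 0.0522 in COV362 prexasertib and 0.161 ± 0.0398 in COV362 DMSO. MCM7 to MCM5 averaged 5.75 ± 0.404 in PEO1 prexasertib and 3.18 ± 0.468 in PEO1 DMSO, and 4.49 ± 0.407 in COV362 prexasertib and 4.49 ± 0.293 in COV362 DMSO. POLD3 to POLD1 averaged 10.3 ± 2.37 in PEO1 prexasertib and 2.86 ± 0.961 in PEO1 DMSO, and 4.71 ± 1.58 in COV362 prexasertib and 4.21 ± 0.972 in COV362 DMSO. CDT1 to GMNN averaged 0.0908 ± 0.0222 in PEO1 prexasertib and 0.176 ± 0.0387 in PEO1 DMSO, and 0.178 ± 0.0861 in COV362 prexasertib and 0.172 ± 0.0454 in COV362 DMSO. In PEO1 the treated and vehicle ranges of these 5 ratios were separate.

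Genes around the replisome were read from the same fit, in which 14.7% of all genes rose and 14.6% fell in PEO1. Of 38 other licensing and replisome genes, 4 rose and 3 fell in PEO1, and the largest falls were TONSL, a fork repair factor (−1.42 ± 0.23), and the helicase gene RECQL4 (−1.01 ± 0.28; edgeR QL, BH-adjusted p = 0.000525 and 0.0144). Of 22 regulators of S phase entry, 5 rose and 5 fell. CDKN1A, the CDK inhibitor p21, averaged 52.6 ± 11.5 CPM in PEO1 prexasertib and 6.74 ± 1.302 CPM in PEO1 DMSO (SD, n = 3 each), with a fitted log2 change of 2.96 ± 0.23 (by edgeR QL test, BH-adjusted p = 2.53e-06). E2F7, a repressor of E2F targets, rose by 1.04 ± 0.21 (edgeR QL, BH-adjusted p = 0.00221). Of 9 genes of deoxynucleotide supply, RRM2 rose and 3 fell, with the largest falls in TK1 (−0.86 ± 0.21) and SLC29A1 (−0.59 ± 0.14; edgeR QL, BH-adjusted p = 0.00725 and 0.00519). Of 20 G2 and mitosis markers, 1 rose and 4 fell, with the largest changes in PLK1 (−0.97 ± 0.12) and CENPE (0.81 ± 0.25; edgeR QL, BH-adjusted p = 6.13e-05 and 0.0278).

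In COV362 the sole call in these lists was CDKN1A, at 20.1 ± 1.62 CPM with prexasertib and 6.76 ± 1.89 CPM with DMSO (SD, n = 3 each). Its log2 fold change was 1.55 ± 0.23 (edgeR QL, BH-adjusted p = 0.00559). Of the 22 regulators 19 lay below 0 and 2 above, and all 9 supply genes lay below, as did 7456 of all 14498 genes. The regulators summed to 2712 to 2794 CPM with prexasertib and 3206 to 3439 CPM with DMSO. The supply genes summed to 1009 to 1042 and 1212 to 1370 CPM, and neither pair overlapped. With the block 6 regulators and 4 supply genes were called lower, against 5.45% of all genes. DESeq2 called 4 and 2 lower, against 1.61%. The difference between the lines' changes was called for 2 of the 38 other replisome genes (1 higher and 1 lower in PEO1), for 5 of the 22 regulators (all higher), for 1 of the 9 supply genes (higher) and for 3 of the 20 mitosis markers (all lower), against 6.1% of all genes (3.14% higher and 2.97% lower). Summed mitosis markers were at 3442 to 3946 CPM in PEO1 prexasertib and at 3883 to 4143 CPM in PEO1 DMSO, which overlap. In PEO1, 6 of 8 epithelial carcinoma markers fell as well, and their sum was 3442 to 4042 CPM with prexasertib and 6599 to 7716 CPM with DMSO, with no marker of the list at 0. In COV362 none of the 8 was called, and the sums of 2320 to 3521 CPM with prexasertib and 2295 to 2838 CPM with DMSO overlapped. Their part in the changes of the replisome genes was not tested.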

How the data were processed

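Poly-A RNA was sequenced without strand information, per the labels' protocols. The deposited table holds raw read counts per gene from the authors, and STAR, Subread, featureCounts 1.4.6 and the build hg38 are named in the submitters' processing notes. Of 26485 genes, 28 had names turned into dates by a spreadsheet, none of them a member. All 12 libraries were fitted together as 4 group means with edgeR 4.0.16 (R 4.3.3), using TMM scaling, the filterByExpr filter (minimum count 10, total 15) and the quasi-likelihood F-test with 8 residual degrees of freedom. This left 14498 genes and all 46 members, and p-values were Benjamini-Hochberg adjusted over all of them, with a call at an adjusted p under 0.05. CPM is scaled to the TMM-adjusted library size, and RPKM also divides by exon kilobases. The SE of a log2 fold change was its size over the square root of F. The fit was tested on simulated counts that held no effect of the replicate letter and no lean by exon length, so that test does not cover these features.

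Same-letter libraries deviated together in every pair (correlation of deviations from group means 0.418, 0.243 and 0.120 in PEO1 and 0.533, 0.547 and 0.183 in COV362 for A, B and C). Different-letter pairs ranged from −0.557 to 0.334, and PEO1 prexasertib B correlated more with PEO1 DMSO C (0.303) than with B, so the pairing is not clean. A fit with the letter as a block (6 residual degrees of freedom) is given, by name or value, where it changed a member's call. For the other gene lists it is given only for the regulators and supply genes in COV362. No 2 libraries of a group agreed within sampling noise (chi-square per gene 9.20 to 34.5 in PEO1 and 14.9 to 71.1 in COV362). Alternatives were DESeq2 1.42.0, limma-voom (limma 3.58.1), other size factors, no filter, an exon length correction, 1 line alone and each library left out. Leaving out the A libraries was chosen after seeing the data. Named members were CDC6, CDT1, GMNN, MCM2, PCNA, POLE and UHRF1, the largest called change in PEO1 per group of genes, the 3 lowest p-values for the difference between lines, and the 2 highest and 2 lowest changes between untreated lines. Others were named after their values were seen. The members, the gene lists and the rule were chosen with earlier results of these data known. Promoters came from RefSeq on GRCh38.p14, and figures from matplotlib 3.10.9.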

Additional observations from a re-analysis of the deposited data

Results flagged for a closer look

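The change with prexasertib differed between the lines for 5 members by a test of the difference itself (PEO1 change minus COV362 change, edgeR quasi-likelihood test, BH-adjusted p under 0.05), and 6.1% of all genes passed the same test. The difference was −0.99 for MCM5, −0.88 for LIG1 and −1.22 for POLD1 on the log2 scale, each with a lower change in PEO1. It was 0.79 for ORC6 and 0.65 for GINS1, each with a higher change in PEO1.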

How the results depend on the processing

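No member reversed under any alternative in a comparison where it was called. In PEO1 the 19 called members became 30 with the letter as a block and 29 with the block and an exon length correction. The count over all 14498 genes rose too, from 4249 to 6926 and 7272. The members' median log2 fold change became −0.24 without a filter, −0.25 with the length correction and −0.25 with block and length. It lay between −0.29 and −0.19 with 1 library left out. In COV362 the count of 0 became 3 with DESeq2, 6 with the block, 2 with the length correction and 11 with block and length. The count over all genes, 120 in the main fit, then became 533, 1399, 246 and 1548. With 1 library left out 0 to 1 members were called, and 27 to 128 of all genes. The members' median became −0.13 without the A libraries and lay between −0.20 and −0.11 with 1 library left out. For the difference between lines the count of 5 became 10 with DESeq2, 3 without a filter, 21 with the block, 8 with the length correction and 23 with block and length. The count over all genes, 885 in the main fit, then became 1966, 938, 4219, 1638 and 4400. Without the A libraries 3 members and 1130 of all genes were called. With 1 library left out 1 to 7 members and 328 to 1756 of all genes were called. The members' median was −0.15 without a filter and between −0.19 and −0.049 with 1 library left out. Between untreated lines the count of called members stayed within 1.5 times of 27. Over all genes the count, 8361 in the main fit, lay between 7513 and 10121. The members' median was −0.22 without the A libraries and between −0.32 and −0.19 with 1 library left out. Beyond the calls named in the report, which for the difference include 16 added members, the block changed no member's call. The cause of these changes was not tested. The limits are 3 libraries per group whose independence is not stated, an unstated treatment time and a dose of 20 nM alone. The lowest member count was 101 reads.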

Other observations

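A few genes around the replisome and its regulators differed widely between the lines, and they were picked after their values were seen. ORC4, a core subunit of the origin recognition complex, averaged 52.9 ± 4.07 CPM in PEO1 DMSO and 11.7 ± 1.23 CPM in COV362 DMSO, and ORC5 averaged 10.8 ± 2.06 CPM in PEO1 DMSO and 35.7 ± 3.72 CPM in COV362 DMSO (SD, n = 3 each). ORC4 was thus higher and ORC5 lower in PEO1 (log2 fold change 2.17 ± 0.15 and −1.73 ± 0.17, edgeR quasi-likelihood test, BH-adjusted p = 3.11e-08 and 1.32e-06). RB1, the restrainer of E2F factors, averaged 31.4 ± 5.89 CPM in PEO1 DMSO and 2.12 ± 1.26 CPM in COV362 DMSO (3.82 ± 0.56, edgeR quasi-likelihood test, BH-adjusted p = 5.24e-05). E2F8, a repressor of E2F targets, averaged 34.8 ± 6.04 CPM in PEO1 DMSO and had 0 reads in the COV362 DMSO libraries, which allows up to 0.0716 CPM (3 counts over the group, counting error only), so its read level was at least 486-fold higher in PEO1. Counts per gene cannot tell a lost gene from an absent transcript. E2F8 also had 0 reads in the COV362 prexasertib libraries.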
